A study of Canis lupus familiaris with 2 samples.

Results

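The dog miRNAs cfa-miR-188, cfa-miR-362, cfa-miR-500, cfa-miR-502, cfa-miR-532 and cfa-miR-660, named below without the species prefix, are 6 of the 291 dog miRNAs on the chip, and their genes lie together on the X chromosome. They were chosen by name, as the miRNAs of the gene cluster that holds miR-188 and miR-500. These last were already known from the same arrays to have a higher signal in dystrophic serum, so the ratios below describe the arrays and are not a test of the choice. The chip carried 1 spot for each of the 6, and the spot names do not state which arm of the hairpin is captured. miR-188 and miR-500 were followed up by RT-qPCR in the study, whereas miR-362, miR-502, miR-532 and miR-660 were not. By RT-qPCR the study found both significantly higher in dystrophic serum, and it describes the rise of miR-500 as much the larger. Among tissues it found miR-188 higher in dystrophic skeletal muscle, and no significant difference for miR-500.

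Serum was taken from male dogs at 2 months of age, the age at which signs of disease begin. The dystrophic group was dogs with X-linked muscular dystrophy (CXMDJ), a model of Duchenne muscular dystrophy, and the control group was normal dogs. Both groups came from the CXMDJ colony. Serum of 3 dystrophic dogs was mixed into 1 pool and serum of 3 normal dogs into another, and RNA from each pool was labelled with Cy5 and hybridized to 1 chip. With 1 array for each group (n = 1), the spread between dogs cannot be given and no test between the groups was made. The number of arrays limits the precision of every value below.

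miRNAs are short RNAs that are cut from hairpin precursors and lower the output of messenger RNAs that carry matching sites. Those whose genes lie close together on the same strand are often cut from a shared primary transcript, although the mature forms can then reach different levels. Because part of the miRNA of damaged or active cells leaves them in vesicles or bound to proteins, miRNAs can be measured in serum. Muscle miRNAs are known to rise there when fibers are damaged.

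RefSeq annotates the 6 genes on the dog assembly UU_Cfam_GSD_1.0, where they follow each other in the order MIR532, MIR188, MIR500, MIR362, MIR660 and MIR502. All lie within the span of CLCN5, which encodes a chloride and proton exchanger of endosomes that is known from the kidney disorder Dent disease. They are the 6 miRNA genes listed within that span, and the nearest gene listed after CLCN5 is AKAP4. Position on the chip does not follow this order. The spots of miR-532 and miR-502 share block 12 of the array, while miR-362, miR-188, miR-500 and miR-660 lie in blocks 1, 14, 21 and 30. miR-500 and miR-502 are known to be related in sequence. Their sequences were not compared here, and binding of each to the probe of the other was not tested.

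The spots were read against 1408 blank spots on each array. Background is the mean of these blank spots after trimming 5% at each end, 118 for normal serum and 116 for dystrophic serum. Detection required a spot above this mean plus 2 SD of the trimmed blank spots, a limit of 126 and 124, respectively. The net signal is the spot intensity minus background, and the normalized signal is the net signal scaled so that the median of the detected miRNAs of an array is 25. Since each miRNA has 1 spot, the scatter of all blank spots was taken as the error of a spot, with an SD of 7.27 intensity units (normal array) and 7.19 (dystrophic array). This error covers the spot alone and leaves out differences between dogs, RNA preparations and chips.

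All 6 miRNAs were detected in both sera, compared with 48.8% of the 291 dog miRNAs (54.6% in normal and 64.6% in dystrophic serum). The limit was also passed by 26.5% (normal array) and 23.8% (dystrophic array) of the 181 probe-free spots. For blank spots the shares were 9.4% and 8.6%. On the normal array 21 of the 32 negative-control spots reached miR-500, and 21 each reached miR-362 and miR-660. Detection alone therefore does not show that a miRNA was present in serum. The normalized signal of the 6 miRNAs was low. In normal serum 5 of the 6 were below 25, the median of the detected miRNAs, and in dystrophic serum 3 were. miR-188 and miR-500 had a dystrophic over normal ratio above 2, the limit used by the study. The other 4 had ratios from 1.02 to 1.97, and none was reduced to 0.5 or less. Ratios above 2 were found for 13.4% of the 142 dog miRNAs detected on both arrays, and ratios of 0.5 or less for 5.63%. As these miRNAs were picked with their ratios known, nothing is read from the comparison with that share. All 6 ratios were above 1, as were 58.5% of those of all miRNAs detected on both arrays, although those of miR-532 and miR-660 were below 1 with some other scalings. The median ratio of the 6 was 1.86, and that of the 142 was 1.09. Without background subtraction these medians were 1.07 and 1.04.

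**Figure D1:**
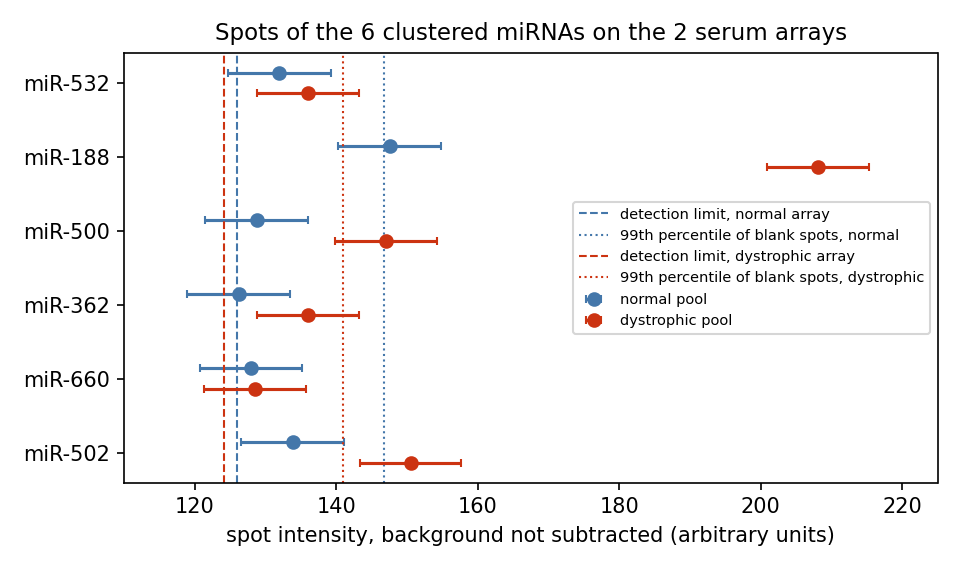
Intensity of the spot of each of the 6 miRNAs before background subtraction, in arbitrary units, on the array of normal (blue) and dystrophic (red) serum, with bars of 1 SD of all blank spots of that array. Dashed lines mark the detection limits and dotted lines the 99th percentiles of the blank spots (147 for normal and 141 for dystrophic serum). The dystrophic spot of miR-188 at 208 stands far from the other 11 spots, which lie between 126 and 150.

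miR-188 is known from the control of stromal cell fate in bone marrow and was linked to muscle differentiation in the study. Of the 6, miR-188 stood furthest above the mean of the blank spots. Its spot read 148 in normal and 208 in dystrophic serum. After background subtraction these are net signals of 29.5 and 92.3, and normalized signals of 30.7 and 76.3. The dystrophic spot was brighter than all 181 spots named as without a probe and than all 32 negative-control spots, and 1 of the 1408 blank spots reached it. On the normal array 13 blank spots, 8 spots without a probe and 3 negative-control spots reached the level of miR-188. The ratio of 2.48 ranked 12 among the 142 miRNAs. Moving both spots by 1 SD of the blank spots in opposite directions gave ratios from 1.84 to 3.55, so the lower end stayed above 1 and fell below 2. Against its surroundings miR-188 did not stand out on the normal array. It was 40.8 units brighter there, compared with 47.3 for miR-500 and a mean of 40.8 for blank spots. On the dystrophic array it was 49.3 units brighter, close to the 48.3 of miR-502, with a mean of 34.6 for blank spots.

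miR-500, which has been studied in tumor cells, lay close to background in normal serum. The spot of miR-500 read 129 and 147, with net signals of 10.7 and 31.2 and normalized signals of 11.2 and 25.8. The normal spot was 2.85 units above the detection limit, less than the SD of the blank spots. On that array 83 blank spots and 31 spots without a probe reached its level, whereas 8 and 7 did on the dystrophic array. Its ratio of 2.31 ranked 13, next to miR-188, but the range given by 1 SD of the blank spots ran from 1.06 to 8.82. The net signals of the pools differed by 20.5 units, 2.00 times the SD expected for a difference between 2 blank spots (10.2 units). For miR-188 the difference was 62.7 units, or 6.14 times that SD. Net signals are not scaled between the arrays, so both differences also contain any difference in level between the arrays. Without scaling the median ratio of the 142 miRNAs was 1.37, compared with 1.09 with scaling.

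miR-362 and miR-502 came close to the limit of a 2-fold ratio without passing it. miR-362, known as a regulator of the NF-kB pathway in tumor cells, lay at the detection limit in normal serum. Its spot read 126 there and 136 in dystrophic serum, with normalized signals of 8.49 and 16.7. The normal spot was 0.292 units above the detection limit, and 8.95% of the blank spots reached its brightness. The ratio of 1.97, just below 2, ranges from 0.672 to 24.2 with 1 SD of the blank spots, and a ratio of 1 or of 2 lies well inside. Thus miR-362 and miR-500 fall on opposite sides of the limit with ratios of 1.97 and 2.31 while the range of miR-500 lies inside that of miR-362.

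miR-502, known as a regulator of the histone methyltransferase SET8, was above the detection limit on both arrays, by 7.93 and 26.5 units. The margin on the normal array was close to the SD of the blank spots (7.27). There 44 blank spots, 15 spots without a probe and 13 negative-control spots reached the level of miR-502. Its spot read 134 and 150, and its normalized signals were 16.4 and 28.7. Its unscaled net signals differed by 18.9 units, 1.85 times the SD of a difference between blank spots, close to the 2.00 times of miR-500. On the dystrophic array 5 blank spots were at least as bright as miR-502, fewer than the 8 for miR-500. The ratio of 1.75, with a range from 0.948 to 3.90, is counted from a higher normal signal than that of miR-500. In the difference between unscaled net signals, therefore, miR-500 and miR-502 were within 1.59 units of each other.

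miR-532 and miR-660 lie in the cluster next to miR-188 and miR-502, respectively, and had ratios near 1. miR-532, studied as a regulator of RUNX3 in tumors, read 132 and 136, with normalized signals of 14.5 and 16.7. Its ratio was 1.15, with a range from 0.488 to 3.27. miR-660, studied as a regulator of MDM2 in lung tumor cells, read 128 on both arrays, with normalized signals of 10.3 and 10.5 and a ratio of 1.02. The range of miR-660 was from 0.252 to 5.98, so that a ratio of 1 and the ratio of miR-188 both lie inside it. On the dystrophic array 62 blank spots, 27 spots without a probe and 24 negative-control spots reached the level of miR-660.

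**Figure D2:**
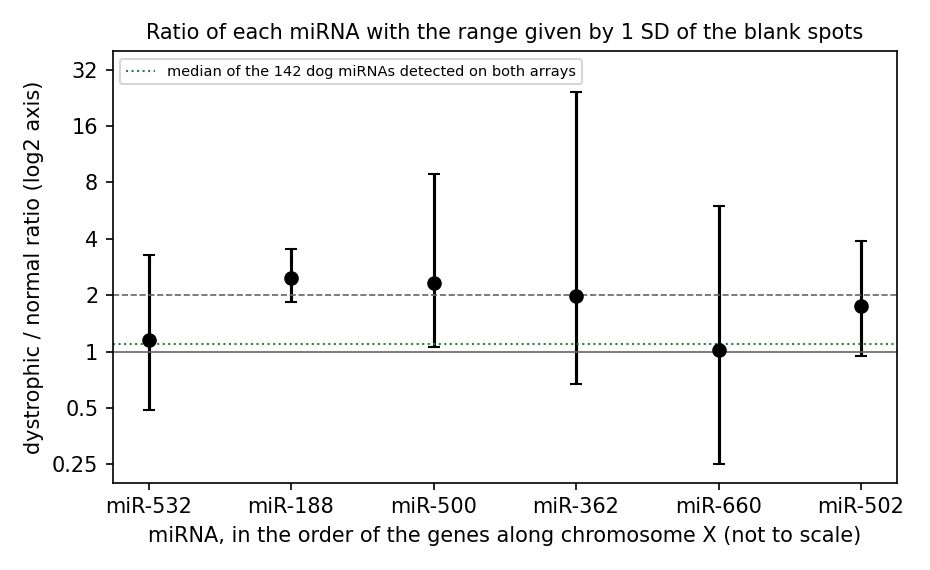
Dystrophic over normal ratio (log2 axis) of each miRNA, in the order of the genes along chromosome X. Bars give the range when both spots are moved by 1 SD of all blank spots in opposite directions, the dashed line is a ratio of 2, the solid line a ratio of 1 and the dotted line the median of the 142 miRNAs detected on both arrays (1.09). Only the bars of miR-188 and miR-500 stay above 1, and all 6 bars overlap. The lower end of miR-500 (1.06) is below the median of 1.09.

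Along the genes the ratios followed no single direction, with 1.15, 2.48, 2.31, 1.97, 1.02 and 1.75 from MIR532 to MIR502. The genes with the highest ratios, MIR188, MIR500 and MIR362, are neighbors. The ranges of all 6 overlapped, since the highest of the lower ends (1.84 for miR-188) was below the lowest of the upper ends (3.27 for miR-532). Such overlap does not show that 2 ratios are equal within error, and differences between ratios were not tested. The unscaled net signals rose by 62.7 units for miR-188, 20.5 for miR-500 and 12.1 for miR-362. For miR-532 and miR-660 the rises were 6.28 and 2.74 units. The lower end was above 1 for 2 of the 6, miR-188 and miR-500, compared with 28.2% of the 142 miRNAs. For miR-500 this end (1.06) was below the median ratio of the 142 (1.09). The ends also move with the scaling between the arrays. Added together, the normalized signals of the 6 were 91.6 in normal and 175 in dystrophic serum, and 60.9 and 98.4 without miR-188.

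**Figure D3:**
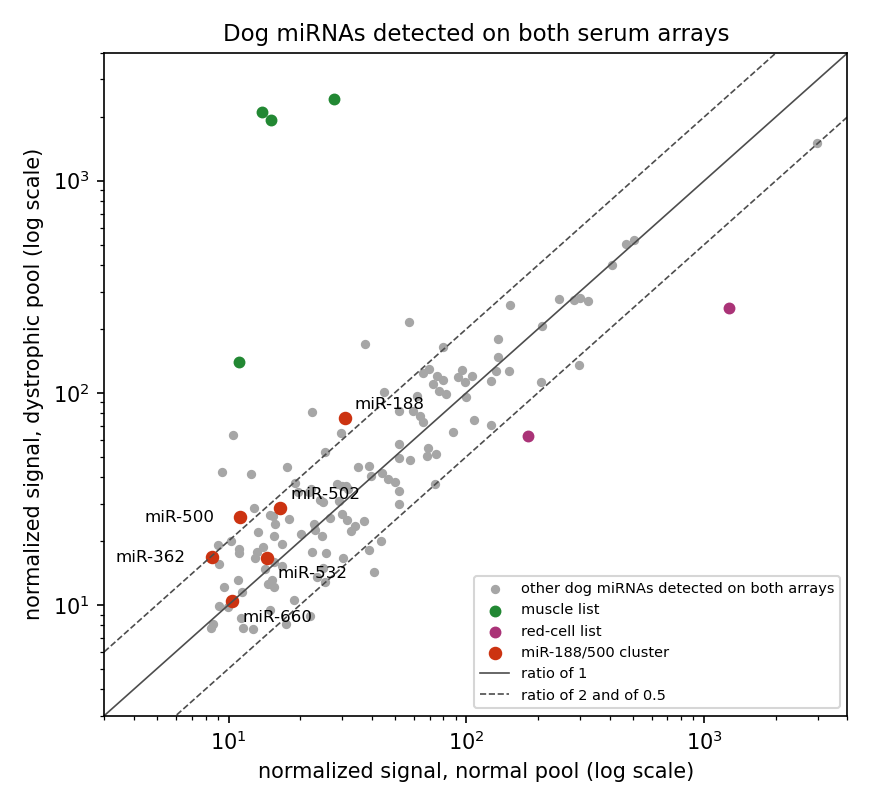
Normalized signal in normal (x axis) and dystrophic (y axis) serum, both on log scales, of the 142 dog miRNAs detected on both arrays. The 6 miRNAs of the cluster are red and named, the muscle list is green and the red-cell list purple. The solid line is a ratio of 1 and the dashed lines are ratios of 2 and 0.5. The cluster lies in the dim part of the plot, between 8.49 and 30.7 on the x axis, far below the miR-133 points.

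The size of these ratios was small beside that of the muscle miRNAs. Of 8 miRNAs of striated muscle, miR-133a, miR-133b, miR-133c and miR-206 were detected on both arrays, with ratios of 128, 87.1, 152 and 12.6. miR-499 was detected in normal serum alone and miR-1 in dystrophic serum alone, while miR-208a and miR-208b were detected in neither. The signals of the detected muscle miRNAs added up to 80.0 in normal and 6616 in dystrophic serum. Of the red-cell miRNAs, 2 of the 4 on the chip, out of a list of 5, had lower signals in dystrophic serum. miR-451 had normalized signals of 1276 and 250 and miR-16 of 182 and 62.7, ratios of 0.196 and 0.346. miR-185 was detected in dystrophic serum alone and miR-144 in neither, and miR-486 was not among the spot names. The summed signal of the detected red-cell miRNAs was 1457 in normal and 324 in dystrophic serum. The summed signals of the muscle and red-cell lists therefore differed between the same pools as the cluster did, and their part in the ratios of the cluster was not tested. In serum, more cells releasing a miRNA and more miRNA released per cell cannot be told apart.

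The dog miRNAs nearest to miR-188 in both normalized signals were miR-30a, miR-127 and miR-10b, at distances of 0.24, 0.47 and 0.60 on the log2 scale over the 2 arrays. Their ratios were 2.19, 3.62 and 2.06. Nearest to miR-500 were miR-142, miR-485 and miR-1199-5p, with distances of 0.25, 0.35 and 0.39 and ratios of 2.24, 1.65 and 1.96. A short distance over 2 arrays says only that the signals were alike, and probes differ in how well they capture their target. Among the 62 miRNAs detected on both arrays with a normal signal under 25, where all of the cluster but miR-188 lies, 17.7% had a ratio above 2.

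Signals of this size overlapped with those of spots named as negative controls, whose probe sequences were not available. The 16 spots of negative control 1 were on average 20.9 units above background in the normal array and 21.8 in the dystrophic one. For the 8 spots of negative control 3 the means were 15.1 and 21.1, whereas negative control 2 lay at -0.270 and 6.23. In normal serum miR-188 was the only member with a net signal above the mean of negative control 1, as the others had net signals from 8.17 to 15.8. In dystrophic serum miR-188, miR-500 and miR-502 were above it, with net signals of 92.3, 31.2 and 34.7. miR-362 and miR-532 had the same dystrophic net signal of 20.2, and miR-660 had 12.6.

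The level of the blank spots also differed from block to block. Over the 32 blocks of an array their mean ran from 114 to 127 in the normal array and from 112 to 128 in the dystrophic one. Against the 44 blank spots of its own block, miR-188 was 31.4 units higher in normal and 93.6 units higher in dystrophic serum, and none of them was as bright on either array. The corresponding values were 7.60 and 31.6 for miR-500, with 7 of the 44 blank spots matching or exceeding it in normal serum, and 18.3 and 32.4 for miR-502. These 3 miRNAs thus stood higher above their blocks in the dystrophic pool, and so did miR-532, miR-362 and miR-660. The values are not scaled between the arrays. For miR-532 the values were 16.4 and 17.9.

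For miR-362 and miR-660 the level of the block mattered most. The block of miR-660 had the brightest blank spots of the normal array, with a mean of 127 and an SD of 15.3. miR-660 was 0.992 units above that mean in normal and 16.5 units above its block in dystrophic serum, and in normal serum 16 of the 44 blank spots matched or exceeded it. The block of miR-362 had the brightest blank spots of the dystrophic array, with a mean of 128 and an SD of 18.4. It was 4.76 and 8.04 units above its block, and 7 and 6 of the 44 blank spots matched or exceeded it. With the blank level of each block as background neither passed the limit in normal serum, which left them without a ratio. The ratio of miR-500 was then 3.40, above the 2.58 of miR-188, so that their order turned.

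The ratio of a miRNA depends on the factor that sets the arrays to a common level, while its place among the 142 miRNAs does not. Divided by the median ratio of 1.09, the ratios were 2.27 for miR-188, 2.12 for miR-500, 1.80 for miR-362, 1.60 for miR-502, 1.06 for miR-532 and 0.929 for miR-660. These relative values are the same under any common factor. Without scaling between the arrays 4 of the 6 were above 2-fold, because miR-362 and miR-502 then had ratios of 2.48 and 2.20. When the arrays were scaled to the miRNAs that both had detected, miR-188 alone was above 2, with a ratio of 2.04, and miR-532 and miR-660 had ratios of 0.948 and 0.834. With quantile normalization none of the 6 was above 2, and miR-188 had a ratio of 1.93.

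The ratios also changed with the treatment of the background. Without background subtraction the ratio of miR-188 was 1.37, that of miR-500 was 1.11, and the others lay between 0.977 and 1.09. Such ratios are pulled toward 1, since both signals still contain the background. With the mean and SD of untrimmed blank spots, miR-188 and miR-502 were the 2 detected on both arrays, with ratios of 3.24 and 2.30. With detection at 3 SD, miR-188, miR-502 and miR-532 were detected on both arrays, with ratios of 2.29, 1.61 and 1.06, and miR-500 was not.

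**Figure D4:**
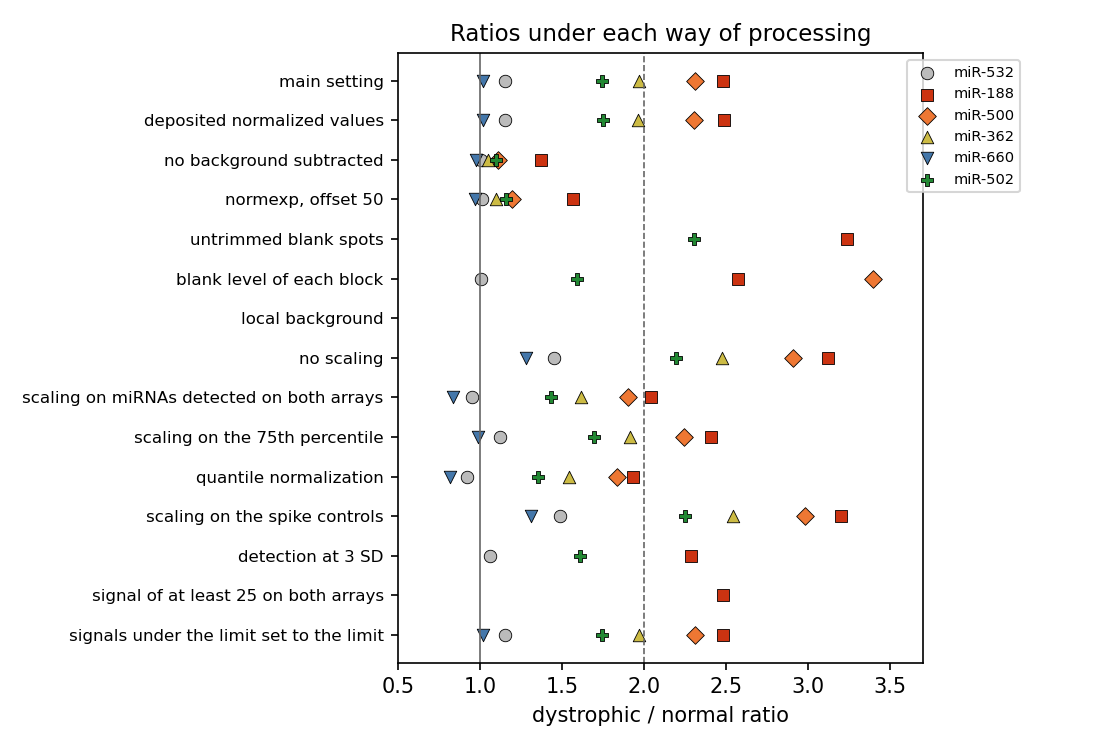
Dystrophic over normal ratio of each miRNA (x axis) as reported (top row) and under 14 other ways of processing. A missing symbol means that the miRNA was not detected on both arrays or was filtered out. miR-188 had a ratio above 1 in all 13 settings that gave one. So did miR-502 in all 12, miR-500 in all 10 and miR-362 in all 9. miR-660 lay between 0.814 and 1.31, and local background left none of the 6.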

How the data were processed

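Serum miRNAs of 1 normal and 1 dystrophic pool were measured on 3D-Gene chips. The authors deposited, per the file headers, the median spot intensity at 635 nm without background subtraction, read with 3D-Gene Extraction software (version not given in the sources used here), and a table of normalized intensity. Scale and centring of that table were found from the scanner values. Each column has a median of 25 over the 159 and 188 miRNAs listed, and it differed from the values recomputed here by at most 0.0491 and 0.0498 units, the rounding. Direction does not arise with 1 color.

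Blank spots were trimmed by 71 at each end (5% rounded up, as in an earlier analysis of these arrays). Detected miRNAs had to be above their mean plus 2 SD, with the spot marked usable. Scaling of the net signals to a detected median of 25 used factors of 1.04 and 0.827. Ratios are dystrophic over normal, and no p-value was computed. The members and lists were chosen with earlier results of these data known. Named miRNAs were the 6 members, the 3 nearest to miR-188 and to miR-500 by the distance of both log2 signals, and the muscle and red-cell lists. Those sharing a seed were to be named too, but miRNA sequences were not used here. RefSeq gene coordinates served for names and neighbors alone, and all 6 matched by name. The steps were tested on simulated data with changes larger than those of the 6 members, so recovery of ratios near 2 was not tested. 14 alternatives were run. Python 3.11.15, numpy 2.4.6, pandas 2.3.3, matplotlib 3.10.9, R 4.3.3 and limma 3.58.1 (normexp, offset 50) were used.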

Additional observations from a re-analysis of the deposited data

Results flagged for a closer look

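The scanner output also gives the brightness around each spot, which the ratios do not use. On the blank spots it averaged 77.9 (normal array) and 81.8 (dystrophic array), with 99th percentiles of 106 and 106. A miRNA was picked out when the area around its spot was brighter than that percentile. This was the case for miR-188 on both arrays, with 107 in normal and 159 in dystrophic serum. No blank spot of the dystrophic array had surroundings as bright as those of miR-188. It was also the case for miR-500 on the dystrophic array, with 124 compared with 81.5 on the normal array, and for miR-502 on the normal array, with 110 compared with 102 on the dystrophic array. miR-362, miR-532 and miR-660 were not picked out on either array.

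The spot of miR-188 was 40.8 units brighter than its surroundings in normal and 49.3 in dystrophic serum, and that of miR-502 was 23.9 and 48.3 units brighter. For miR-500 the difference was 47.3 units in normal and 23.2 in dystrophic serum, the opposite direction from its ratio. Blank spots were themselves 40.8 ± 10.1 and 34.6 ± 8.62 units brighter than their surroundings (mean ± SD, n = 1408 spots). What makes the surroundings bright was not tested.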

How the results depend on the processing

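The number of the 6 detected on both arrays was 2 with untrimmed blank spots, 3 with detection at 3 SD, 1 when a signal of 25 or more was required in both sera and 0 with local background. The number above 2-fold, 2 as reported, was 0 without background subtraction, with normexp, with quantile normalization and with local background. It was 1 with scaling on the miRNAs found on both chips, with detection at 3 SD and with a signal of at least 25, and 4 without scaling and with the spike controls. For single miRNAs 62 of 64 ratios lay inside the range of 1 SD of the blank spots, and the ratios of miR-188 without background subtraction (1.37) and with normexp (1.57) lay outside. Ranges of the other miRNAs are wide, such as 0.672 to 24.2 for miR-362 and 0.252 to 5.98 for miR-660. The count therefore says little about how stable their ratios are. 7 of the 64 ratios were below 1, 2 for miR-532 (0.948 with scaling on the miRNAs found on both chips and 0.921 with quantile normalization) and 5 for miR-660 (0.814 to 0.985), whose ranges include 1. The median ratio of the members, 1.86, was 1.07 without background subtraction, 1.13 with normexp and 2.77 over the 2 members left with untrimmed blank spots. Normexp adds an offset of 50 to every signal, which draws ratios toward 1 by construction. The cause of the other changes was not tested. Of the dog miRNAs with a ratio, 13.4% were above 2-fold, from 4.23% without background subtraction to 27.5% with the spike controls. The number with a ratio was 142 as reported. It ran from 21 with local background to 205 with signals under the limit set to the limit. Those above 2-fold were 70.4% of the miRNAs past either limit, and between 31.2% (quantile normalization) and 92.9% (spike controls) under the alternatives. The median log2 ratio of all miRNAs moved by 0.33 without scaling, by 0.37 with the spike controls, by -0.28 with scaling on the miRNAs found on both chips and by -0.39 with quantile normalization.

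The file has 1 signal column, so other scanner gains were not run. No paired analysis was possible because each group has 1 array, so that there was no replicate to leave out either. Low signal over background limits most of all the 5 of the 6 miRNAs whose normal signals lie below 25. It also limits miR-188, whose normal spot read 148, where the 99th percentile of the blank spots was 147. On that array 13 blank spots, 8 spots without a probe and 3 negative-control spots reached miR-188.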
